A study of Mus musculus with 24 samples.

Results

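The interferon regulatory factors (IRFs) were followed in monocytes of mouse peripheral blood (PB). The members were the genes named Irf1, Irf2, Irf3, Irf4, Irf5, Irf7, Irf8 and Irf9, taken by name from the 53715 genes of the table. All 8 were among the 11230 genes that reached 50 or more in any library and were tested. Total RNA of sorted monocytes was sequenced in 24 libraries that formed 6 groups of 4. All mice were C57BL/6 animals aged 8 to 10 weeks, and the mice carry a Cx3cr1 GFP reporter allele. Monocytes were sorted as lineage-negative CD11b+ GFP+ CD115+ cells without surface MHC-II, and Ly6Chi cells also as CD43-. In N2ΔMy mice, both Notch2 alleles are flanked by lox sites and Cre is expressed from the Lyz2 locus, which is active in myeloid cells, and wt mice were the controls. IMQ mice received 50 mg of Aldara cream per day on the skin, which holds 5% imiquimod, an agonist of TLR7, for 4 to 5 days. Sham mice received a Vaseline cream according to the labels and a Sham cream according to the methods of skin treatment, while the passage on RNA isolation calls the controls untreated, and all cells were sorted on day 5. The groups were Ly6Chi cells of wt and of N2ΔMy mice after Sham treatment, the same 2 kinds of Ly6Chi cells after IMQ, and Ly6Clo cells of either genotype, also after IMQ. Ly6Clo cells of Sham mice were not analysed here, so the effect of IMQ was measured in Ly6Chi cells and the difference between the subsets after IMQ.

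The sources do not say whether each library came from a separate mouse, so p-values measure the spread between libraries. Inferred depth lay between 9520037 and 19759572 reads per library. The libraries came in 2 numbered series, with replicates 1 and 2 of each group in series 1 and replicates 3 and 4 in series 2. Notch2 lay between 12656 and 20005 normalised read counts in the wt libraries and between 7240 and 11518 in the N2ΔMy libraries, so the targeted gene was lower in all N2ΔMy libraries but not absent. The summed level of 6 Ly6Chi monocyte markers was 57088 to 84977 in the Ly6Chi libraries, 547 to 1912 in the wt Ly6Clo libraries and 7167 to 10095 in the N2ΔMy Ly6Clo libraries. The summed level of 8 Ly6Clo monocyte markers was 11322 to 31927 in Ly6Chi libraries, 111214 to 134201 in wt Ly6Clo libraries and 58705 to 78278 in N2ΔMy Ly6Clo libraries. In such bulk libraries, fewer cells of a type and less RNA per cell cannot be told apart.

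IRFs are transcription factors that share a DNA-binding domain for GAAA-rich sites, the interferon-stimulated response elements. Irf3 and Irf7 are activated by kinases downstream of nucleic acid sensors and switch on interferon genes, and Irf5 acts downstream of TLR7 on inflammatory cytokine genes. Irf9 joins STAT2 in the complex that carries the signal of the type I interferon receptor into the nucleus. Irf1 is induced by interferon-γ, and Irf2 can occupy the same sites and restrain it. Irf4 and Irf8 are the lymphoid and myeloid members that bind together with PU.1 or AP-1 factors. Irf8 is known for its part in monocyte development, and Irf4 for macrophages and dendritic cells with genes of alternative activation and antigen presentation.

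On GRCm38.p6, the genes lie apart on 6 chromosomes, with Irf1 at chr11:53770014-53778374, Irf2 at chr8:46739732-46847458, Irf3 at chr7:44997648-45002848 and Irf4 at chr13:30749226-30766976. Irf5 is at chr6:29526625-29541871, Irf7 at chr7:141262706-141266481, Irf8 at chr8:120736358-120756694 and Irf9 at chr14:55603571-55610030, and Irf7 alone is on the minus strand. Values are counts over all exons of a gene.

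Promoters were read from RefSeq on GRCm38.p6 as 300 bases, with 250 before and 50 from the start site on, and 11 such promoters matched the 8 members. Each was searched on both strands for the interferon-stimulated response element core GAAANNGAA, for the STAT site TTCNNNGAA, which reads the same on both strands, and for the Ets-IRF composite site GGAANNGAA. Of 32851 promoters of this length, 8.56% held the first, 8.30% the second and 8.24% the third. A match was found in 3 of the 11 promoters, those of Irf1, Irf2 and Irf8, and these are printed because their matches are of the site types that STATs and IRFs bind. The share of all promoters that hold any of the 3 sites was not computed, so 3 of 11 cannot be set against the shares of the single sites. The promoters of Irf4 and Irf7, the members with the largest differences between groups, are printed beside them and held none of these letters in this window. Sequences run 5′ to 3′ on the gene's strand, and capitals mark the matches. The Irf1 match is a STAT site 90 bases before the start, and Irf8 held 2 STAT sites, at 171 and 153 bases before the start. The Irf2 promoter held a composite site and a response element core, which overlap at its 5′ end, followed by a STAT site.
Irf1, chr11:53769764-53770063, plus strand: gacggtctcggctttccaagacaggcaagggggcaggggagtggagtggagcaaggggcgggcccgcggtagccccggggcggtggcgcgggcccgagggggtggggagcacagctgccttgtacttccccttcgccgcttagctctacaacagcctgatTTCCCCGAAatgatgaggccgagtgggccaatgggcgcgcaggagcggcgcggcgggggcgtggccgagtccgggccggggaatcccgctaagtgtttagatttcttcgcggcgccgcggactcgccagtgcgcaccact
Irf8, chr8:120736108-120736407, plus strand: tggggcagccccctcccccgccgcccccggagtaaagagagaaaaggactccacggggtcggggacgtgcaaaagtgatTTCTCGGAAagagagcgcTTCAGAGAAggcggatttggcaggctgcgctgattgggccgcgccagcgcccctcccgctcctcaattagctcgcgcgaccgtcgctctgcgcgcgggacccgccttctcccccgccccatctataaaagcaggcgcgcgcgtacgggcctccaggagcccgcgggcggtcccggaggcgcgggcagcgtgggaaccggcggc
Irf2, chr8:46739495-46739794, plus strand: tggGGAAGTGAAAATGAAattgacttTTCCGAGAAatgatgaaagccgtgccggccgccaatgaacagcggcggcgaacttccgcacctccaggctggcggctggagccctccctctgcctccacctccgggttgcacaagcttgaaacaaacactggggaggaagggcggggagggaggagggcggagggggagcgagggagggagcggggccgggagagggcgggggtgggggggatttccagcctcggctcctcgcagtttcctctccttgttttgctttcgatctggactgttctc
Irf4, chr13:30748983-30749282, plus strand: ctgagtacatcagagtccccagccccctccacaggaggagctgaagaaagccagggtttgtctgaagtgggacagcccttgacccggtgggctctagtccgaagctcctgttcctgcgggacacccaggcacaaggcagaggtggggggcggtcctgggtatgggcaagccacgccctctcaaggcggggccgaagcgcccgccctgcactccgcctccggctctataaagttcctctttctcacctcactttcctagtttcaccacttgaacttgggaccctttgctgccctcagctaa
Irf7, chr7:141266375-141266674, minus strand: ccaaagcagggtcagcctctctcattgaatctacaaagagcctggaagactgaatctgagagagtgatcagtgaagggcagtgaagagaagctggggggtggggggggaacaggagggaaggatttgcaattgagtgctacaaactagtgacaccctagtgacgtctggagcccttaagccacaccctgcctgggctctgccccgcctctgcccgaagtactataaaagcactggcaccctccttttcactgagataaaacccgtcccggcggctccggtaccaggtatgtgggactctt

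Between genes, levels were compared as normalised read counts per kb of annotated exon length. Irf5 had the highest level per kb in all 6 groups, from 1961 ± 245 (SD, n = 4) in wt Ly6Clo IMQ to 2930 ± 319.6 in N2ΔMy Ly6Chi Sham, and made up 40.6% to 52.6% of the summed level of the 8 members. In wt Ly6Chi Sham libraries the order was Irf5, Irf7 at 1658 ± 98.1 per kb, Irf8 at 616 ± 65.3, Irf1 at 502 ± 28.8, Irf2 at 447 ± 39.3, Irf9 at 429 ± 48.5, Irf4 at 387 ± 23.7 and Irf3 at 187 ± 17.7. The ranges of Irf1, Irf2, Irf9 and Irf4 overlapped between neighbours in this order, whereas Irf5, Irf7, Irf8 and Irf3 stood apart from theirs.
In wt Ly6Chi IMQ libraries, Irf7 was at 485 ± 185 per kb, and the ranges of Irf7, Irf8, Irf1, Irf2 and Irf9 overlapped from each to the next. Irf4 was the lowest member there, at 166 ± 14.9 per kb, below Irf3 at 196 ± 9.29. In wt Ly6Clo IMQ libraries Irf4 was again the lowest, at 51.9 ± 22.7 per kb, and its range stood apart from that of Irf9 at 199 ± 42.1. In N2ΔMy Ly6Clo IMQ libraries Irf4 was at 208 ± 61 per kb, and its range overlapped those of Irf8 at 236 ± 45.4 and Irf9 at 203 ± 26.7. The lower part of the order therefore differed between the 2 genotypes in Ly6Clo cells, whereas Irf5 led it in both. Irf2 had the next highest mean in both, with a range that overlapped that of Irf7 in wt cells and stood apart in N2ΔMy cells.

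**Figure D1:**
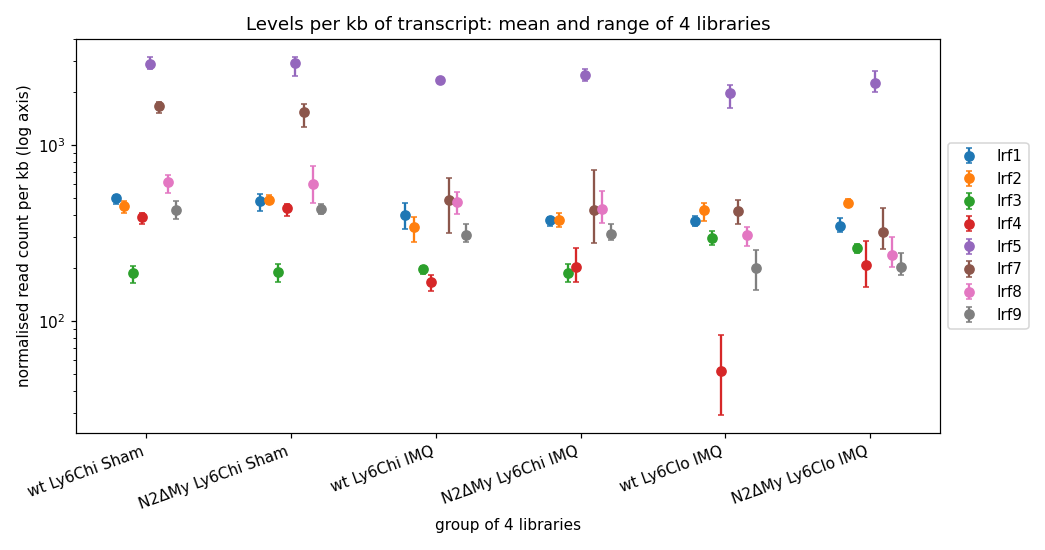
Normalised read counts per kb (y axis, logarithmic) of the 8 members in the 6 groups (x axis), with points at the mean and bars from the lowest to the highest of 4 libraries. Irf5 lies above all others throughout, Irf7 is second and apart from its neighbours after Sham, and Irf4 reaches its lowest mean of 51.9 in wt Ly6Clo IMQ.

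The first comparison was IMQ against Sham, between Ly6Chi cells sorted from the blood of mice of either treatment. Differences were called where limma's adjusted p did not exceed 0.05 and the log2 fold change, on log2(value + 1), was 0.6 or more in either direction. Irf7 and Irf4 fell in wt cells, and no member rose, so that 2 of 8 members were called. Of all genes tested, 4.43% were called higher and 5.07% lower. Likewise 2 members, Irf7 and Irf4, fell in N2ΔMy cells and none rose, beside 4.15% of genes higher and 4.55% lower. The median log2 fold change of the 8 members was -0.39 in wt and -0.41 in N2ΔMy cells.

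Irf7, the main amplifier of type I interferon production, was at 6588, 5730, 6335 and 6392 normalised read counts in the wt Ly6Chi Sham libraries and at 1186, 2461, 2411 and 1274 in the wt Ly6Chi IMQ libraries. In N2ΔMy mice it was at 6472, 5588, 4754 and 6436 after Sham and at 1049, 1253, 2707 and 1464 after IMQ. All Sham libraries lay above all IMQ libraries, and within the IMQ groups the libraries were uneven, with 2 high wt libraries and 1 high N2ΔMy library. The mean was 3.42 times as high after Sham as after IMQ in wt cells, with a log2 fold change of -1.85 ± 0.23 (SE, adjusted p = 0.000454). In N2ΔMy cells the log2 fold change was -1.93 ± 0.25 (adjusted p = 0.000867). Within the series the values were -1.85 and -1.86 in wt cells and -2.39 and -1.47 in N2ΔMy cells, and the call held without each library in turn. Irf7 and Phrf1, on the other strand, overlap at their 3′ ends, and the strand setting of the counting is not given in the sources used here.

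Irf9 and Stat2 encode parts of the complex that acts on interferon-stimulated genes. Irf9 was at 2493, 2574, 2126 and 2050 in wt Ly6Chi Sham libraries and at 1555, 1902, 1666 and 1517 after IMQ. The groups did not overlap, and the log2 fold change of -0.48 ± 0.10 (adjusted p = 0.0113) did not reach 0.6. In N2ΔMy cells it was -0.47 ± 0.087 (adjusted p = 0.00599). Its partner Stat2 fell, at -1.65 ± 0.14 in wt and -1.61 ± 0.16 in N2ΔMy cells. None of 9 genes for interferon receptors and JAK-STAT factors was called higher in either genotype.

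Of 22 interferon-stimulated genes, 21 fell and 0 rose in both genotypes, with a median log2 fold change of -1.69 in wt and -1.94 in N2ΔMy cells, beside medians of 0.014 and 0.0052 over all genes tested. Ifit3, which encodes an antiviral RNA-binding protein, had the largest difference, -3.83 ± 0.41 in wt and -3.81 ± 0.41 in N2ΔMy cells. The chemokine gene Cxcl10 and the antiviral gene Rsad2 followed, with -3.61 and -3.43 in wt cells. In each library, the 22 genes were also summarised by the mean of their log2(value + 1). After Sham this mean lay between 9.88 and 10.6. After IMQ it was 9.01 and 8.99 in the 2 wt libraries with high Irf7 and 9.11 in the N2ΔMy library with high Irf7, and it was 7.88, 7.94, 7.87, 8.16 and 8.28 in the other 5 libraries. The 3 libraries with the highest Irf7 therefore had the 3 highest means, and as the 8 libraries fell into separate clusters no coefficient was computed. These 3 libraries came from both series.

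**Figure D2:**
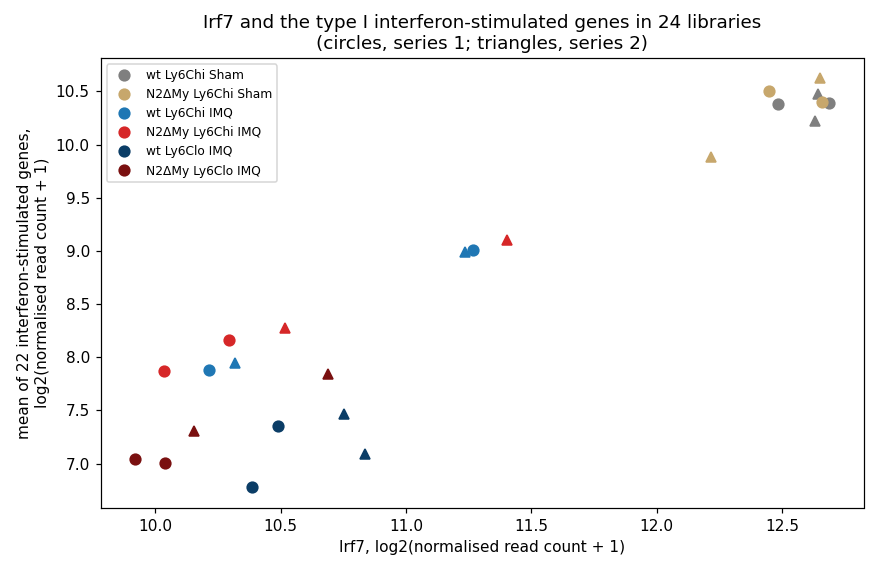
Mean log2(normalised read count + 1) of 22 interferon-stimulated genes (y axis) against log2(normalised read count + 1) of Irf7 (x axis) in 24 libraries, coloured by group. Sham libraries lie at the top right, 3 Ly6Chi IMQ libraries near a mean of 9 lie apart from the other 5, and the Ly6Clo libraries lie between 6.77 and 7.84.

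The genes of the interferons themselves were hardly detected. None of 20 interferon genes reached 50 in any library, and only Ifnb1, with at most 3, and Ifnk, with at most 11, were above 0. Of 8 feedback inhibitors of interferon signaling, Usp18 and Socs1 fell and Socs3 rose in both genotypes, with log2 fold changes of -2.39, -1.64 and 1.53 in wt cells and -2.39, -2.35 and 1.61 in N2ΔMy cells. Of 21 sensors and kinases upstream of the IRFs, 4 were lower and 1 higher in wt cells, and 5 were lower and 1 higher in N2ΔMy cells. In N2ΔMy cells the double-stranded RNA receptor gene Tlr3 had the largest difference (-1.51). The DNA sensor gene Mb21d1 (-1.57 and -1.23), the RNA helicase gene Ddx58 (-1.53 and -1.38) and Tlr9 (-1.44 and -1.33) fell in wt and N2ΔMy cells, and the kinase gene Ikbke rose (1.05 and 0.86).

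Markers of other cells, among them neutrophils and conventional dendritic cells, moved with IMQ treatment in Ly6Chi cells. Of the Ly6Clo markers, Cd300e (3.81 in wt and 5.43 in N2ΔMy) and, in wt, Spn (0.78) were called higher, and none was called lower. The macrophage marker Mertk was called higher in N2ΔMy cells (1.20), at 28 to 36 after IMQ. The B cell marker Ighm was called lower only in a fit blocked by replicate number (-0.62 and -0.71 in wt and N2ΔMy). The summed level of 8 dendritic cell markers was 1886 to 2506 in wt and 1873 to 2602 in N2ΔMy Sham libraries and 1193 to 1448 and 1084 to 1381 after IMQ. Xcr1 and Ccr7 of this list stayed below 50 in every library. For neutrophils, the summed level of 8 markers was 2 to 16 in wt and 2 to 59 in N2ΔMy Ly6Chi Sham libraries and 1172 to 4937 and 921 to 5213 after IMQ. Of these, S100a8 and S100a9 accounted for nearly all of this and were the ones that reached 50 in Ly6Chi IMQ libraries, whereas Ly6g was at 0 in all of these and Camp reached at most 8. The sort for CD115 and against lineage markers and MHC-II is set to leave out neutrophils and MHC-II+ dendritic cells, and the part of such cells in the differences after IMQ was not tested.

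The remaining members differed less between IMQ and Sham. At an adjusted p of at most 0.05 alone, with no threshold on the fold, 6 of 8 members were lower and 0 higher in wt cells, beside 8.65% of genes lower and 6.95% higher. In N2ΔMy cells 5 were lower and 0 higher, beside 7.02% lower and 6.73% higher. Irf2 had a log2 fold change of -0.39 ± 0.11 in wt and -0.38 ± 0.087 in N2ΔMy cells, with no overlap between Sham and IMQ libraries in either. Irf1 had values of -0.35 ± 0.11 (adjusted p = 0.0605) and -0.36 ± 0.092 (adjusted p = 0.0257). Its wt value had an adjusted p of 0.0207 in a fit blocked by replicate number. Irf5 had values of -0.31 ± 0.075 and -0.22 ± 0.099, and Irf8 had -0.38 ± 0.11 and -0.45 ± 0.16. The Irf8 value in N2ΔMy cells was -0.77 within series 1, which passed both thresholds (adjusted p = 0.0239), and -0.13 within series 2. Irf3 had a log2 fold change of 0.076 ± 0.098 in wt and -0.017 ± 0.11 in N2ΔMy cells, with 95% intervals from -0.14 to 0.29 and from -0.26 to 0.22. The Irf3 libraries overlapped in both, from 562 to 707 after Sham and from 632 to 707 after IMQ in wt cells. In the test of whether the IMQ difference itself differed between the genotypes, 0 members were called, beside 0% of genes higher and 0% lower, with 177 of 11230 genes at an unadjusted p under 0.05 in limma.

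Irf4 was the member whose pattern differed most between genotypes. It was at 1898, 1938, 1741 and 2017 normalised read counts in wt Ly6Chi Sham libraries and at 800, 844, 897 and 724 after IMQ. In N2ΔMy Ly6Chi cells it was at 1923, 2208, 2175 and 2254 after Sham and at 847, 816, 1276 and 1048 after IMQ. IMQ libraries lay below Sham libraries in both genotypes, with log2 fold changes of -1.22 ± 0.091 (adjusted p = 4.46e-05) and -1.12 ± 0.14 (adjusted p = 0.000645). In Ly6Clo cells after IMQ it was at 143, 225, 408 and 242 in wt libraries and at 793, 766, 1399 and 1113 in N2ΔMy libraries. All N2ΔMy Ly6Clo libraries lay above all wt Ly6Clo libraries, and those at 766, 793 and 1113 lay within the range of the 8 Ly6Chi IMQ libraries, 724 to 1276.

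The comparison of Ly6Clo with Ly6Chi cells after IMQ asks how the levels differ between the 2 sorted subsets. In the steady state Ly6Chi monocytes convert into Ly6Clo monocytes, and the authors report that this conversion was impaired in N2ΔMy mice. In wt cells 3 of 8 members, Irf4, Irf8 and Irf9, were called lower in Ly6Clo and 0 higher, beside 12.7% of genes lower and 11.9% higher. In N2ΔMy cells 2 members, Irf8 and Irf9, were called lower and 0 higher, beside 8.38% lower and 9.01% higher. Irf4 was 3.21 times as high in wt Ly6Chi as in wt Ly6Clo cells, with a log2 fold change of -1.77 ± 0.25 (adjusted p = 0.000307) for Ly6Clo minus Ly6Chi. In N2ΔMy cells this value was 0.0083 ± 0.21, with a 95% interval from -0.45 to 0.46, and the libraries overlapped. The test of the difference between the 2 values, the interaction of genotype and subset, gave 1.78 ± 0.36 (adjusted p = 0.0191). Irf4 was the only member called in this test, higher in N2ΔMy, beside 0.971% of genes higher and 0.0623% lower. Within series 1 the interaction was 2.10 (adjusted p = 0.002) and within series 2 it was 1.47 (adjusted p = 0.198), and with no filter on low values the adjusted p was 0.121.

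Markers of other cells moved with the subsets too. The neutrophil marker sum was 1172 to 4937 in wt Ly6Chi IMQ and 17 to 290 in wt Ly6Clo libraries, and 921 to 5213 and 93 to 256 in N2ΔMy mice, with S100a8 and S100a9 called lower in Ly6Clo cells of both. The macrophage marker sum was 39 to 90 in wt Ly6Chi IMQ and 107 to 208 in wt Ly6Clo libraries, where C1qc alone was called higher. In N2ΔMy mice it was 61 to 129 and 1686 to 2457, and 5 of the 8 markers were called higher, among them Cd5l (6.83), C1qa (5.83) and Mertk (2.82). Of the dendritic cell markers, Zbtb46 and Dpp4 were called higher in Ly6Clo cells of both genotypes, Clec10a (-3.79) and Flt3 (-1.84) lower in wt, and Clec9a (2.92) higher in N2ΔMy cells. Siglech, a marker of plasmacytoid dendritic cells, was called higher in Ly6Clo than Ly6Chi cells of N2ΔMy mice (3.17), at 6 to 64 in the Ly6Clo libraries. In wt mice its value was 2.32, which passed only in a fit blocked by replicate number (adjusted p = 0.0397). Of the 8 markers of that list, Tcf4 was not called in either genotype and 6 stayed below 50 in every library. Prdm1 was lower in Ly6Clo cells of both genotypes (-1.85 in wt and -0.98 in N2ΔMy). The part of such cells in the subset differences was not tested.

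The direct comparison of the genotypes in Ly6Clo cells called Irf4 as well. Irf4 was 4.00-fold higher in N2ΔMy than in wt Ly6Clo cells, at 1018 ± 299 against 254.5 ± 111 normalised read counts (SD, n = 4 each), with a log2 fold change of 2.05 ± 0.30 (adjusted p = 0.00245). It was the only one of 8 members called higher, and none was called lower, beside 3.12% of genes higher and 1.67% lower. The call held within either series, at 1.99 in series 2, and the value without each library in turn lay between 1.81 and 2.31 with the call kept. With no filter on low values the adjusted p was 0.0673, which misses the threshold.

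Markers of other cells moved with Irf4 in this comparison. The summed level of 8 macrophage markers was 107 to 208 in wt Ly6Clo and 1686 to 2457 in N2ΔMy Ly6Clo libraries, and the macrophage genes C1qb and Mertk were higher in N2ΔMy by 3.88 and 4.41 on the log2 scale. The macrophage markers Timd4, Marco and Vcam1 stayed below 50 in every library. The Ly6Chi marker sum was also higher in N2ΔMy Ly6Clo libraries, as given above, and Ccr2, the chemokine receptor of Ly6Chi monocytes, was at 241 to 991 in wt and 4393 to 6281 in N2ΔMy libraries. Of 8 markers of conventional dendritic cells, 4 reached 50 in wt and 6 in N2ΔMy Ly6Clo libraries, with sums of 1319 to 1719 and 1293 to 3176, of which Dpp4 made up 891 to 1187 and 536 to 1129. Clec10a of this list was at 6 to 35 in wt and at 104 to 240 in N2ΔMy Ly6Clo libraries and was called higher in N2ΔMy (3.33 ± 0.50, adjusted p = 0.00298) and in the interaction of genotype and subset (3.43 ± 0.54, adjusted p = 0.00323). Flt3, the receptor of a dendritic cell growth factor, was at 35 to 325 and 135 to 850, a difference of 1.91 that passed only in the fit blocked by replicate number (adjusted p = 0.00242), as did that of Clec9a (1.34, adjusted p = 0.0494). Plasma cells also express Irf4, and the sum of 6 plasma cell markers was 29 to 63 in wt and 50 to 88 in N2ΔMy Ly6Clo libraries. Prdm1 of this list was at 13 to 46 and 33 to 59, whereas Jchain reached at most 7 and Mzb1 was at 0 in every library. The sort of lineage-negative CD115+ MHC-II- cells is set to leave out plasma cells and MHC-II+ dendritic cells, and the part of any such cells in the Irf4 difference was not tested.

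**Figure D3:**
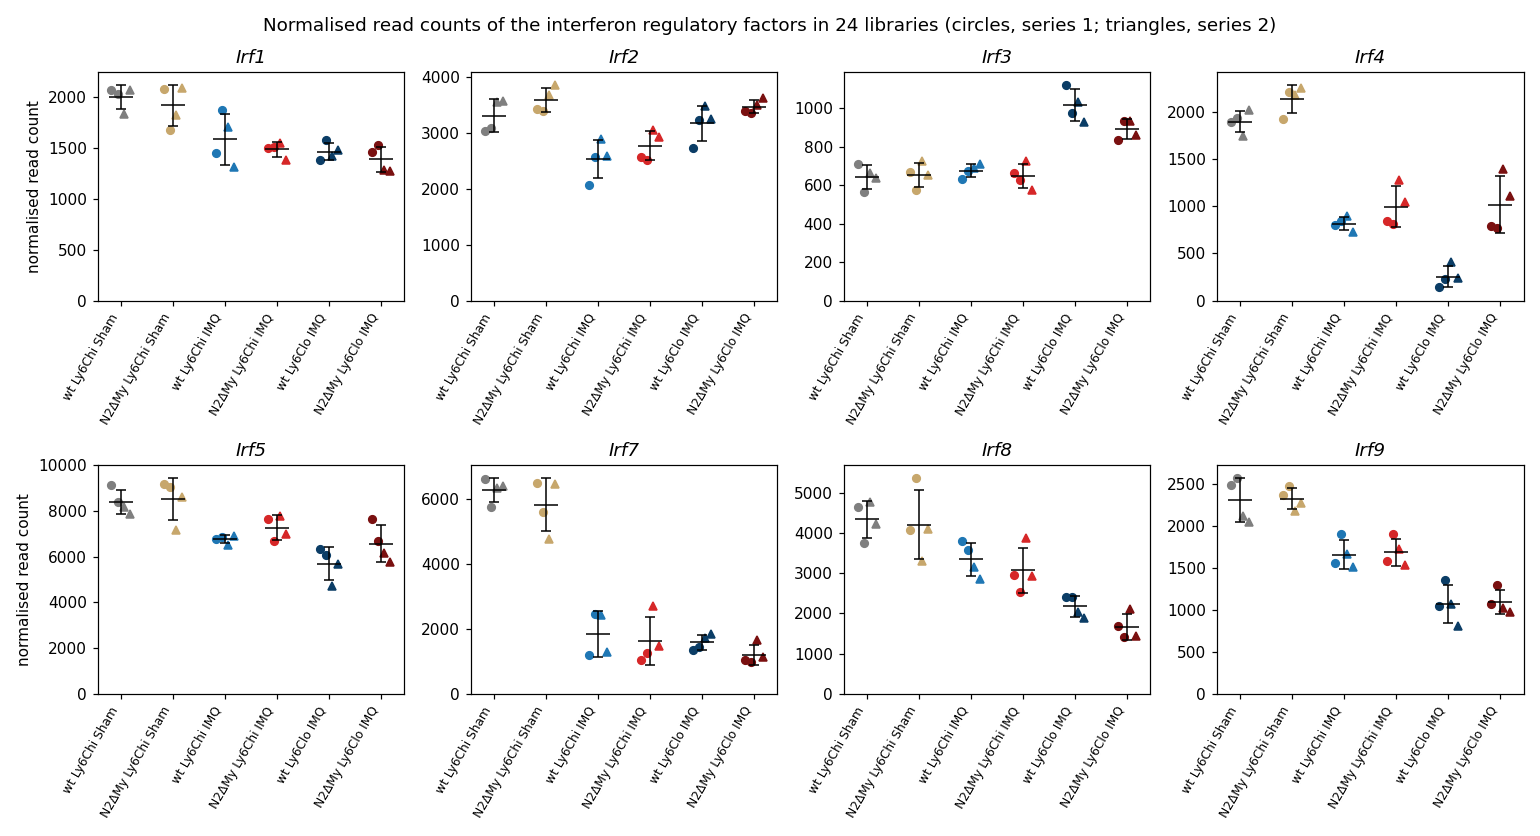
Normalised read counts (y axes, from 0) of the 8 members in 24 libraries by group (x axes), with circles for series 1, triangles for series 2, and the mean ± SD of 4 libraries in black. Irf7 and Irf4 drop from Sham to IMQ, and Irf4 is at 143 to 408 in wt Ly6Clo against 766 to 1399 in N2ΔMy Ly6Clo libraries.

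Of 12 genes linked to Irf4 in alternative activation and antigen presentation, 8 could be tested. They include Kdm6b, a histone demethylase that acts on the Irf4 locus rather than downstream of it, which was not called in any comparison. In Ly6Chi cells after IMQ, 6 of them fell and 1 rose in each genotype, with median log2 fold changes of -2.25 in wt and -2.59 in N2ΔMy cells. The lectin gene Cd209a fell, at log2 fold changes of -6.31 and -7.33, and so did the mannose receptor gene Mrc1, at -3.34 and -3.26, whereas the chitinase-like gene Chil3 rose, at 2.45 and 3.21. Of the dendritic cell markers, Clec9a (-2.53 and -3.54), Dpp4 (-1.05 and -1.47), Clec10a (-1.02 and -1.06) and Flt3 (-0.84 and -0.88) fell in the same comparison in wt and N2ΔMy cells, and Cd24a rose (2.89 and 2.76). Prdm1, a target of Irf4 in plasma cells, fell as well, at -1.38 and -1.67. The part in these differences of dendritic cells or plasma cells, which the same gate is set to leave out, was not tested. In Ly6Clo cells, 3 of the 8 were higher in N2ΔMy than in wt and 0 lower, and a fit blocked by replicate number called 6 higher and 0 lower. The median was 2.55, beside -0.0035 over all genes tested. Mrc1 was at 9, 14, 7 and 3 in wt Ly6Clo and at 85, 47, 150 and 75 in N2ΔMy Ly6Clo libraries, a log2 fold change of 3.32 ± 0.49 (adjusted p = 0.00287). Cd74, the invariant chain of MHC class II, was at 1322, 1648, 2679 and 467 in wt and at 3446, 3749, 18001 and 9453 in N2ΔMy libraries (2.41 ± 0.59, adjusted p = 0.0373). The class II gene H2-Aa, although cells were gated as MHC-II-, was at 213, 273, 736 and 67 in wt and at 517, 642, 6134 and 3083 in N2ΔMy libraries. The groups overlapped for H2-Aa, while N2ΔMy was higher within each of the 4 replicate numbers, and the log2 fold change of 2.77 ± 0.85 (adjusted p = 0.0899) passed in the blocked fit (adjusted p = 0.00562). Its highest N2ΔMy libraries were those of series 2, where Irf4 was highest as well.

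Irf8 is the member that drives monocyte development and shares partners and sites with Irf4. It was at 3788, 3569, 3140 and 2864 in wt Ly6Chi IMQ libraries and at 2400, 2397, 2032 and 1879 in wt Ly6Clo IMQ libraries. In N2ΔMy mice it was at 2964, 2526, 3866 and 2916 in Ly6Chi and at 1682, 1420, 2110 and 1443 in Ly6Clo libraries. Ly6Clo libraries lay below Ly6Chi libraries in both genotypes, and the log2 fold changes were -0.62 ± 0.12 (adjusted p = 0.00206) and -0.88 ± 0.16 (adjusted p = 0.00186). The wt value lay close to the fold threshold of 0.6 and missed it without wt Ly6Chi replicate 1 or 2 or wt Ly6Clo replicate 3 or 4, at -0.55 to -0.59. In Ly6Clo cells the difference between genotypes was -0.40 ± 0.14 (adjusted p = 0.14), with -0.63 within series 1, which passed both thresholds, and -0.16 within series 2. The fit blocked by replicate number gave this difference an adjusted p of 0.0323, with the fold change under the threshold.

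The level of Irf4 per kb was divided by that of Irf8 in each library, a ratio chosen after the values were seen and given with no test. It was 0.304, 0.340, 0.411 and 0.364 in wt Ly6Chi IMQ libraries and 0.0857, 0.135, 0.289 and 0.185 in wt Ly6Clo IMQ libraries. In N2ΔMy libraries it was 0.411, 0.465, 0.475 and 0.517 in Ly6Chi and 0.678, 0.776, 0.954 and 1.11 in Ly6Clo cells. The ratio was thus lower in Ly6Clo than in Ly6Chi libraries in wt mice and higher in N2ΔMy mice, without overlap in either. After Sham it was 0.525 to 0.743 in wt and 0.592 to 0.950 in N2ΔMy Ly6Chi libraries.

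Of 10 phagocyte genes known to depend on Irf8 and PU.1, 3 were higher and 2 lower in wt Ly6Clo than wt Ly6Chi cells. The lysozyme gene Lyz2 and the cytokine gene Il18 were lower, at log2 fold changes of -1.99 and -1.69, and the transcription factor gene Klf4 was higher by 1.05. In N2ΔMy cells 1 was higher and 2 were lower, with the same genes at -1.12, -0.97 and 1.04. Spi1, which encodes PU.1, the partner of Irf4 and Irf8, was 0.75 higher in wt Ly6Clo than wt Ly6Chi cells, and in N2ΔMy cells the value was 0.43 ± 0.15 (adjusted p = 0.0606). Among 10 partner factors of the IRFs, the lymphoid zinc finger gene Ikzf3 had the largest difference between subsets. It was at 7, 43, 79 and 37 in wt Ly6Chi and at 1312, 1517, 1501 and 2059 in wt Ly6Clo IMQ libraries. It was lower in N2ΔMy Ly6Clo libraries, at 348, 332, 665 and 897, with a log2 fold change of -1.62 against wt. Irf2bp2, which encodes a corepressor that binds Irf2, was at 529, 598, 711 and 596 in wt and at 1219, 1380, 1091 and 1157 in N2ΔMy Ly6Clo libraries, a log2 fold change of 1.00. Irf2bp2 passed the interaction test of genotype and subset as well, at 0.85, and the blocked fit called Batf3 there as well, at 1.17 (adjusted p = 0.0476).

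Irf9 was at 1555, 1902, 1666 and 1517 in wt Ly6Chi IMQ and at 1046, 1362, 1071 and 808 in wt Ly6Clo IMQ libraries. In N2ΔMy mice it was at 1580, 1902, 1724 and 1542 in Ly6Chi and at 1073, 1303, 1027 and 978 in Ly6Clo libraries. The subsets did not overlap in either genotype, and the log2 fold changes were -0.65 ± 0.15 (adjusted p = 0.00565) and -0.63 ± 0.12 (adjusted p = 0.00247). Both lay close to the fold threshold. The wt value missed it without wt Ly6Chi replicate 2 (-0.58) or wt Ly6Clo replicate 4 (-0.52), and without the former Irf4 alone of the members was called. In series 1 alone it missed as well, at -0.53 in wt and -0.55 in N2ΔMy cells. The N2ΔMy value missed it without N2ΔMy Ly6Chi replicate 2 (-0.57) or N2ΔMy Ly6Clo replicate 3 (-0.60) or 4 (-0.58), which left Irf8 as the 1 member called each time. Irf9 overlaps Rnf31 on the same strand, which had a mean of 855, so reads of the shared bases could have been counted for either. Of the 22 interferon-stimulated genes, 16 were lower and 2 higher in wt Ly6Clo than in wt Ly6Chi cells. In N2ΔMy cells 11 were lower and 0 higher, and blocking by replicate number raised the total called to 19, 18 lower and 1 higher, while the number called over all genes went from 1953 to 2302. Slfn5 had the largest difference in both, -4.08 and -2.60. Of the receptors and JAK-STAT factors, Tyk2 (-1.06 and -0.86) and Stat2 (-0.98 and -0.67) were lower and Jak2 (0.70 and 0.66) was higher in Ly6Clo than Ly6Chi cells of wt and N2ΔMy mice. Irf7 itself did not pass, with -0.14 ± 0.24 (95% interval -0.67 to 0.39) in wt and -0.36 ± 0.27 (-0.94 to 0.22) in N2ΔMy cells, and its libraries overlapped.

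Irf3, the constitutive partner of Irf7, had the opposite order of the subsets. It was at 632, 674, 689 and 707 in wt Ly6Chi IMQ libraries and at 1121, 974, 1034 and 929 in wt Ly6Clo IMQ libraries. In N2ΔMy mice it was at 665, 626, 724 and 573 in Ly6Chi and at 832, 935, 931 and 860 in Ly6Clo libraries. Ly6Clo libraries lay above Ly6Chi libraries in both genotypes, at log2 fold changes of 0.58 ± 0.095 (adjusted p = 0.00073) and 0.46 ± 0.11 (adjusted p = 0.00883), which are under the fold threshold. The wt value passed it without wt Ly6Chi replicate 4 or wt Ly6Clo replicate 2 or 4, at 0.61, 0.60 and 0.62, and in series 1 alone, at 0.68 (adjusted p = 0.00606). Irf2 pointed the same way, at 0.33 ± 0.12 (adjusted p = 0.0498) and 0.33 ± 0.093 (adjusted p = 0.0247). At the adjusted p alone, 2 members were thus higher and 3 lower in wt Ly6Clo cells, beside 18.3% and 17.3% of genes, and 2 were higher and 2 lower in N2ΔMy Ly6Clo cells, beside 13% and 11.8%. The fit blocked by replicate number added Irf5 in wt (adjusted p = 0.0103) and Irf7 in N2ΔMy cells (adjusted p = 0.0276), both lower. The share of all genes at the adjusted p alone was not computed for that fit. Bcl2l12, which lies on the other strand and overlaps Irf3, had a mean of 95.6.

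Irf1 and Irf5 differed little between the subsets. Irf1 was at 1314 to 1864 in wt Ly6Chi and at 1376 to 1571 in wt Ly6Clo IMQ libraries, with a log2 fold change of -0.10 ± 0.12 (95% interval -0.36 to 0.15), and the N2ΔMy value was -0.10 ± 0.097 (-0.32 to 0.11). The libraries overlapped in both. Of 18 genes of the interferon-γ and Irf1 response, 16 could be tested, and 7 fell and 1 rose after IMQ in wt Ly6Chi cells, with 6 lower and 0 higher in N2ΔMy cells. The class II transactivator gene Ciita fell, at log2 fold changes of -1.46 and -1.73, and so did the immunity-related GTPase gene Igtp, at -1.20 and -1.27. Between the subsets, 6 of the 16 were lower and 1 was higher in wt Ly6Clo than wt Ly6Chi cells (median -0.50), and 3 were lower and 1 higher in N2ΔMy cells (median -0.44). The higher gene, Cd274, which encodes the ligand PD-L1, was 3.37 higher in wt Ly6Clo than wt Ly6Chi cells and 3.46 higher in N2ΔMy cells.
Irf5 was at 6768, 6878, 6523 and 6898 in wt Ly6Chi IMQ and at 6340, 6062, 4711 and 5674 in wt Ly6Clo IMQ libraries, which did not overlap, and the log2 fold change of -0.26 ± 0.10 (adjusted p = 0.0729) did not pass. In the fit blocked by replicate number its adjusted p was 0.0103, with the fold change under the threshold. The N2ΔMy log2 fold change was -0.15 ± 0.11, with overlap. Irf5 overlaps Tnpo3 on the other strand, which had a mean of 925. Of 6 cytokine genes known to depend on Irf5, Tnf alone could be tested, and it was higher in Ly6Clo than in Ly6Chi cells by 1.79 in wt and 1.22 in N2ΔMy mice.

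**Figure D4:**
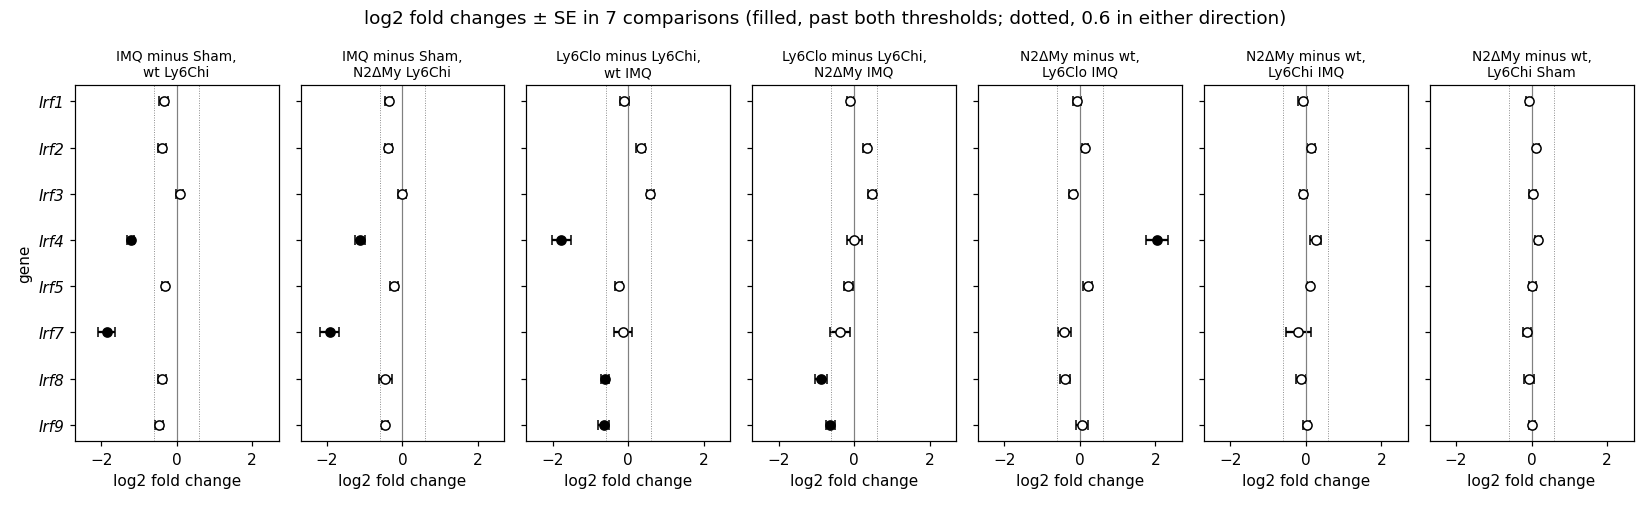
log2 fold changes ± SE (x axes) of the 8 members (y axis) in the 7 comparisons of 4 against 4 libraries, filled where both thresholds were passed. Irf4 at 2.05 is the only filled point in the 3 comparisons of genotypes.

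Between genotypes, Ly6Chi cells showed no called member. After IMQ, 0 of 8 members were called, beside 0.0178% of genes higher and 0.0089% lower in limma, and 679 of 11230 genes had an unadjusted p under 0.05. After Sham, 0 of 8 were called, beside 0.0089% in either direction, with 585 genes at an unadjusted p under 0.05. The largest member differences there were those of Irf4, at 0.27 ± 0.14 after IMQ (95% interval -0.055 to 0.59) and 0.17 ± 0.077 after Sham (-0.00012 to 0.34), and the libraries overlapped in both. Irf7 had -0.20 ± 0.33 after IMQ (-0.93 to 0.54), an interval wide enough to hold differences past the fold threshold. In Ly6Clo cells, Irf7 was at 1336, 1437, 1722 and 1828 in wt and at 1051, 968, 1650 and 1140 in N2ΔMy libraries, a log2 fold change of -0.41 ± 0.17 (adjusted p = 0.205). The groups overlapped through N2ΔMy replicate 3, while Irf7 was lower in N2ΔMy within each of the 4 replicate numbers. The fit blocked by replicate number gave it an adjusted p of 0.0163, with the fold change under the threshold. Tlr7, the receptor of imiquimod, was at 2703, 3302, 3496 and 3887 in wt and at 1736, 2029, 1949 and 2455 in N2ΔMy Ly6Clo libraries and was lower in N2ΔMy (-0.71 ± 0.13, adjusted p = 0.0108). Of the 21 sensors and kinases, 2 were higher and 1 was lower in N2ΔMy Ly6Clo cells, and Tlr9 and the chaperone gene Unc93b1, which carries both receptors to endosomes, were the higher ones, at 0.88 and 0.64. Blocking by replicate number called 4 of the 21, 3 higher and 1 lower, beside 939 of all 11230 genes. Of the 22 interferon-stimulated genes, the nucleic acid sensor gene Zbp1 alone was called, lower in N2ΔMy at -0.87, and the block called 3, of which 2 were higher and 1 lower. Of the 16 tested genes of the interferon-γ and Irf1 response, the guanylate-binding protein gene Gbp3 was higher and Cd274 lower (-0.94), and the block called 4, 2 higher and 2 lower. Of the feedback inhibitors, Socs3 was lower (-0.80), and of the 10 phagocyte genes the oxidase subunit gene Ncf1 was higher (0.79). No gene of the receptors and JAK-STAT factors was called. In Ly6Chi cells, none of the genes of these lists was called between genotypes in either treatment. The blocked fit called 2 there, Cd274 after IMQ (-1.03, adjusted p = 0.0354) and Lyz2, the locus of the Cre allele, after Sham (-0.75, adjusted p = 0.0315), both lower in N2ΔMy.

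**Figure D5:**
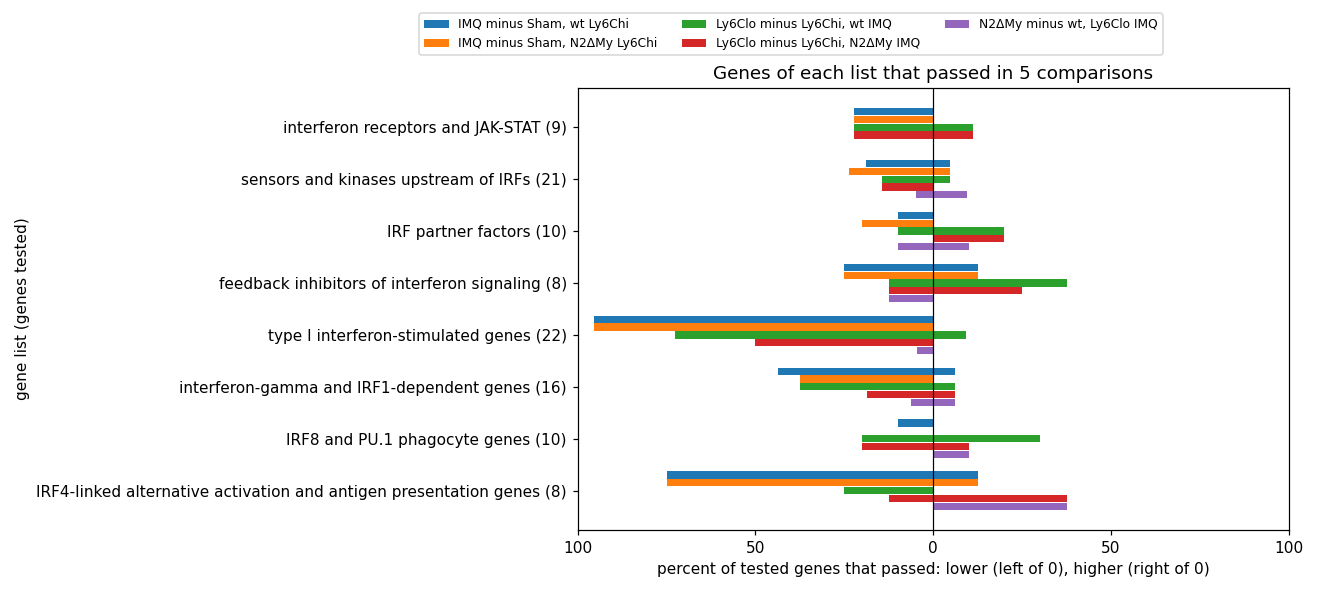
Percent of the tested genes of 8 gene lists (y axis, genes tested in parentheses) that were called higher (right of 0) or lower (left of 0) in 5 comparisons (colours). Interferon-stimulated genes have the longest bars, with 21 of 22 lower after IMQ in both genotypes.

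In the F-test over the 6 groups, at an adjusted p of at most 0.01, all 8 members were called, beside 43% of all genes tested. The adjusted p was lowest for Irf4 (1.62e-10) and highest for Irf2 (0.000403). In exact two-sided permutation tests over the 70 splits of 8 libraries, all differences between 2 groups of libraries called in limma reached p = 0.0286, the smallest that 4 against 4 libraries allow, which is 0.08 after adjustment over the 56 tests of 8 members in 7 comparisons.

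The likeness of patterns was described by Pearson's r of log2(value + 1) over the 24 libraries, which share groups and series, among 8375 tested genes with a mean of at least 100. The genes nearest to Irf7 were Ifit3 (r = 0.991) and Ifit2 (0.975), and those nearest to Irf9 were Dck (0.973), Oas1a (0.964) and Mnda (0.963). The genes nearest to Irf4 were Plekho1 (0.973), the dendritic cell marker Clec10a (0.961) and Abca9 (0.958). Those nearest to Irf3 were Evl (0.941), AC163442.1 (0.941) and Cd72 (0.937), and those nearest to Irf8 were RP24-127M20.2 (0.936), St3gal2 (0.934) and Plac8 (0.909). Irf5 was nearest to Ppp1r21 (0.934), Hk2 (0.922) and Pdxk (0.921), and Irf1 to Parp14 (0.907), Ino80 (0.899) and H2-T24 (0.898). Irf2 was nearest to Fam78b (0.894), Phf11b (0.883) and the fractalkine receptor gene Cx3cr1 (0.882), whose locus carries the GFP reporter. Among the members themselves, r was highest for Irf1 and Irf7 (0.871) and for Irf8 and Irf9 (0.859), and lowest for Irf3 and Irf9 (-0.793). Irf3 had a negative r with 6 of the other 7 members, and its r with Irf2 was 0.219.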

How the data were processed

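Sorted mouse monocytes were profiled by RNA sequencing in 24 libraries, in 6 groups of 4. Per the methods and the submitters' processing notes, the authors trimmed single reads with Trim Galore 0.4.4, aligned them with STAR 2.5.3a to GRCm38.p6, and normalised gene counts by DESeq2 size factors. The deposited values are these normalised read counts rounded to whole numbers, treated as a score and not as raw counts, so no count model was run on them. Libraries were stranded, and the strand setting of the counting is not given in the sources used here. The 5 columns of the authors' own comparisons (fold changes and p-values) were not used, and 0 columns of per-sample values lacked a sample. Depth was inferred from the steps between values, at 9520037 to 19759572 reads per library, and limits the precision of low genes.

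Values were tested in R 4.3.3 with limma 3.58.1 (lmFit and eBayes with a trend) on log2(value + 1), for 11230 genes that reached 50 in any library. Fold changes are on this scale, which understates those of low genes. A gene was called where the p adjusted over all genes tested (Benjamini-Hochberg) did not exceed 0.05 and the log2 fold change was 0.6 or more in either direction, or where the adjusted p did not exceed 0.01 in the F-test over 6 groups. Each comparison was fitted on its own groups. Single members were also compared by two-sided exact permutation tests in Python 3.11.15 with scipy 1.17.1. The procedure was tested on simulated data: for wt Ly6Clo against wt Ly6Chi on 10903 genes, it recovered 86 of 100 genes changed 2-fold and 97 of 100 changed 4-fold, with 8 others called. On 10898 genes, the interaction of genotype and subset recovered 78 and 94 of 100, with 10 others called, and the fit of 2 groups with a replicate block 75 and 92 of 100, with 7 others called. Changes were placed only in genes with means well above the filter, and libraries were drawn without shared deviations of series or replicate number. The figures therefore do not cover genes near the filter or libraries that deviate together.

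The members and gene lists were chosen with earlier results of these data known. Named genes were the members, Notch2, up to 3 called genes of each list with the largest absolute log2 fold change, and the 3 genes nearest to each member, of which some are not reported here. Ikbke, H2-Aa, the genes called only in the blocked fit and the marker genes with values were named after their values were seen. Libraries with the same replicate number deviated together from their group means, with correlations of 0.160 to 0.619 between groups, so the numbers were taken to pair the libraries, and a fit with the replicate number as a block was an alternative. Within each series these correlations were -0.116 to 0.263. Other alternatives were other pseudocounts, filters and scalings, each series alone, and leaving out each library.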

Additional observations from a re-analysis of the deposited data

Results flagged for a closer look

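Irf1, the interferon-γ-induced member, had 1 library apart from the others in wt Ly6Chi Sham, at 1827 against 2029 to 2067 normalised read counts in the other 3. The gap was 0.842 of the group's range, above Dixon's critical value for 4 libraries. Of 48 groups of 4 values examined, this was the only 1 flagged, and chance flags about 1 in 20.

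The difference of Irf4 between Ly6Clo and Ly6Chi cells differed between the genotypes, by 1.78 ± 0.36 (SE) on the log2 scale in the interaction test of limma (adjusted p = 0.0191). It came from a lower level in Ly6Clo than Ly6Chi cells in wt mice (-1.77) beside a value near 0 in N2ΔMy mice (0.0083). All 4 N2ΔMy Ly6Clo libraries lay above the 4 wt Ly6Clo libraries. Leaving out each of the 16 libraries in turn gave 1.54 to 2.04, with adjusted p between 0.00154 and 0.0496.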

How the results depend on the processing

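Across 36 settings, 1548 of 1568 log2 fold changes of members kept their side of the thresholds, 14 lost a call and 6 gained one. Of those called, 0 reversed, whereas some that were not called changed sign. Irf7 between genotypes in Ly6Chi cells after IMQ was at -0.20 over both series and at 0.18 in series 2 alone. Of 231 counts of called members, 222 stayed within 1.5 times. With no filter on low values, the 1 member called (Irf4) became 0 between genotypes in Ly6Clo cells (adjusted p = 0.0673) and 0 in the interaction of genotype and subset (adjusted p = 0.121). The log2 fold changes stayed at 2.05 and 1.78, more genes entered the adjustment, and the SE was 0.35 and 0.39 in place of 0.30 and 0.36. In series 1 alone, 2 members (Irf4 and Irf8) were called between genotypes in Ly6Clo cells and 1 in N2ΔMy Ly6Clo against Ly6Chi cells, and in wt Ly6Clo against Ly6Chi cells Irf3 (0.68) took the place of Irf9 (-0.53) among the 3 called. In series 2 alone, 0 were called in the interaction, where Irf4 had 1.47 (adjusted p = 0.198). Each series alone holds fewer libraries, and the cause was not tested further. Leaving out 1 library gave 1 to 4 called members for Ly6Clo against Ly6Chi in wt and 1 to 2 in N2ΔMy mice, and no change in the number called in the other comparisons. The count of 1 in wt mice arose without wt Ly6Chi replicate 2, and that in N2ΔMy mice without Ly6Chi replicate 2, Ly6Clo replicate 3 or Ly6Clo replicate 4. With the replicate number as a block, no call of a member changed, and Irf4 between genotypes in Ly6Clo cells had an adjusted p of 5.59e-06. Over all genes, the block raised the number called between genotypes from 3 to 54 in Ly6Chi cells after IMQ and from 537 to 939 in Ly6Clo cells. Of 1960 counts of gene lists, 101 moved by over 1.5 times.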
